A study of Mus musculus with 2 samples.

Results

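Neurotrophins are secreted growth factors, and the 5 genes described here encode a pair of them and the receptors they bind. They were taken by gene symbol, and all 5 were found among the 32285 genes of the count matrices: Bdnf (brain-derived neurotrophic factor), Ntf3 (neurotrophin 3), Ntrk2 (the receptor tyrosine kinase TrkB), Ntrk3 (the kinase TrkC) and Ngfr (the receptor p75NTR). The choice of symbols used no threshold on measured values. BDNF acts mainly through TrkB and neurotrophin 3 mainly through TrkC, while p75NTR binds every neurotrophin and also their uncleaved precursors. In the hippocampus, Bdnf transcription is known to follow neuronal activity, and its signaling through TrkB supports synaptic strengthening. Ntrk2 also has a truncated isoform without the kinase domain, which is the main form in astrocytes, and counts per gene cannot separate it from the full-length form.

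The data were single-nucleus RNA sequencing of the hippocampus in 2 libraries. The PS19 library came from mice that carried the human Tau P301S transgene (PS19+/-) with intact Zbp1 (Zbp1+/+), and the PZKO library from mice with the same transgene that lacked Zbp1, a sensor of nucleic acids in the Z conformation (PS19+/- Zbp1-/-). Hippocampal tissue of 5 male mice, 9 months old, was combined for each library, so both genotypes carried the tau transgene and no mouse without it was measured. With 1 library per genotype, no difference between PS19 and PZKO has a replicate check. All intervals below are 95% intervals that cover counting error only, and a library effect and a genotype effect cannot be told apart.

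Filtering left 9590 nuclei for PS19 and 9307 for PZKO, with 100571195 and 152268056 unique molecular identifiers (UMIs, counts of captured RNA molecules). Nuclei were deeper in PZKO, with a median of 9022 UMIs against 5849, and carried less mitochondrial RNA, with a median of 0.345% against 0.511%. Zbp1 had 92 UMIs in PS19 and 38 in PZKO. The part of the gene that the knockout allele lacks is not given in the sources used here, so the remaining UMIs do not check the label. In addition, 29 barcodes occurred among the kept nuclei of both libraries. Nuclei fell into 33 clusters, 29 of which were placed in 25 classes. A class is called "X-like" where its marker genes named it, and otherwise goes by a leading gene (Exph5 excitatory, Ano2 inhibitory). The shares of the classes differed between libraries, and granule-like nuclei of the dentate gyrus supplied 15.2% of all UMIs in PS19 and 7.34% in PZKO.

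In the mm10 annotation, Bdnf (ENSMUSG00000048482) lies on chr2:109674700-109727007 on the plus strand, and its span holds a gene on the opposite strand, Gm45346. Ntf3 (ENSMUSG00000049107) lies on chr6:126101412-126166910 and Ngfr (ENSMUSG00000000120) on chr11:95568818-95587735, both on the minus strand and with no overlapping gene. Ntrk2 (ENSMUSG00000055254) spans chr13:58806569-59133970 on the plus strand and Ntrk3 (ENSMUSG00000059146) spans chr7:78175959-78738012 on the minus strand. Each of these receptor genes overlaps 4 other annotated genes. How the counting used strand is not stated, so UMIs of overlapping genes may not be separable.

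Bdnf has several promoters, each with its own first exon. Of the 7 Bdnf start sites in RefSeq (GRCm38.p6), 1 holds in its preceding 250 bases the letters CGTCA, part of the known binding sequence of the activity-dependent factor CREB. This window, chr2:109692186-109692435 on the plus strand, precedes the start of the transcript Bdnf-209 and overlaps no annotated exon. It is shown because Bdnf and activity-regulated genes are compared below, and its only CGTCA, which begins 35 bases before the start, is in capitals.

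Bdnf upstream window: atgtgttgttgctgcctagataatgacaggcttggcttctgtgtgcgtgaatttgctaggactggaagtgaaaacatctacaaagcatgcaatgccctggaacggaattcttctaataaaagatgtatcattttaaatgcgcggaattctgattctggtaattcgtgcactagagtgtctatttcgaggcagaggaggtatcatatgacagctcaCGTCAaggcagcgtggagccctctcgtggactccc

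CGTCA or its reverse complement TGACG occurred in 17.8% of all 32851 RefSeq promoter windows of this length, and in none of the 2 windows of Ntf3 or the windows of Ntrk2 and Ngfr. It occurred in 12 of the 17 windows found for 12 of the activity-regulated genes described below. At least 1 window held it for 10 of these 12 genes, against 19.8% of all 27025 genes with a window. The 1 of 7 windows of Bdnf is 14.3%, below the share of all windows. Tags read at the 3′ end of a transcript do not show which Bdnf promoter was used.

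Bdnf was highest in granule-like nuclei in both libraries. Levels are given as UMIs per 1000000 UMIs of the class (CPM). Bdnf stood at 87.3 CPM in PS19 (interval 82.7 to 92.1, from 1338 UMIs) and at 88.2 CPM in PZKO (82.8 to 93.9, from 986 UMIs). The log2 ratio of PZKO over PS19 was 0.01 (−0.11 to 0.13), with 1009 granule-like nuclei in PS19 and 514 in PZKO. CA3-like nuclei had 57.0 and 50.5 CPM, and CA1-like nuclei 44.3 and 42.6 CPM, with ratios of −0.18 (−0.36 to 0.01) and −0.06 (−0.24 to 0.13). They were the next classes after granule-like nuclei in PS19 only. In PZKO, Exph5 excitatory nuclei (64.7 CPM, 60.7 to 68.8) stood above CA3-like nuclei. Rxfp1 and Il1rapl2 excitatory nuclei stood above CA1-like nuclei there, with overlapping intervals. In the granule-like, CA3-like and CA1-like classes, the intervals of the ratio all held 0.

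Bdnf was low in most inhibitory classes, at 2.36 and 1.28 CPM in Lhx6 interneuron-like nuclei and 2.67 and 2.68 CPM in Adarb2 interneuron-like nuclei. These levels were below those of microglia-like nuclei, at 11.0 and 8.66 CPM, and of oligodendrocyte-like nuclei, at 10.4 and 7.65 CPM. Free RNA at the estimated ambient share would give 10.7 and 8.58 CPM in microglia-like and 8.02 and 7.03 CPM in oligodendrocyte-like nuclei. This estimate is coarse. It would give 114 and 119 CPM of Ntrk3 in oligodendrocyte-like nuclei, where 15.5 and 23.8 CPM were measured. How much of the Bdnf of these glia was free RNA was therefore not determined. Among excitatory classes, deep-layer-like nuclei (10.0 and 6.99 CPM), Vipr2 excitatory nuclei (11.8 and 5.86 CPM) and Tshz2-high excitatory-like nuclei (5.39 and 2.93 CPM) were near or below the levels measured in these glia. In PS19 the intervals of neighbouring classes in the order overlapped for 22 of 24 pairs, and the exceptions were the steps below granule-like and below CA3-like nuclei.

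**Figure D1:**
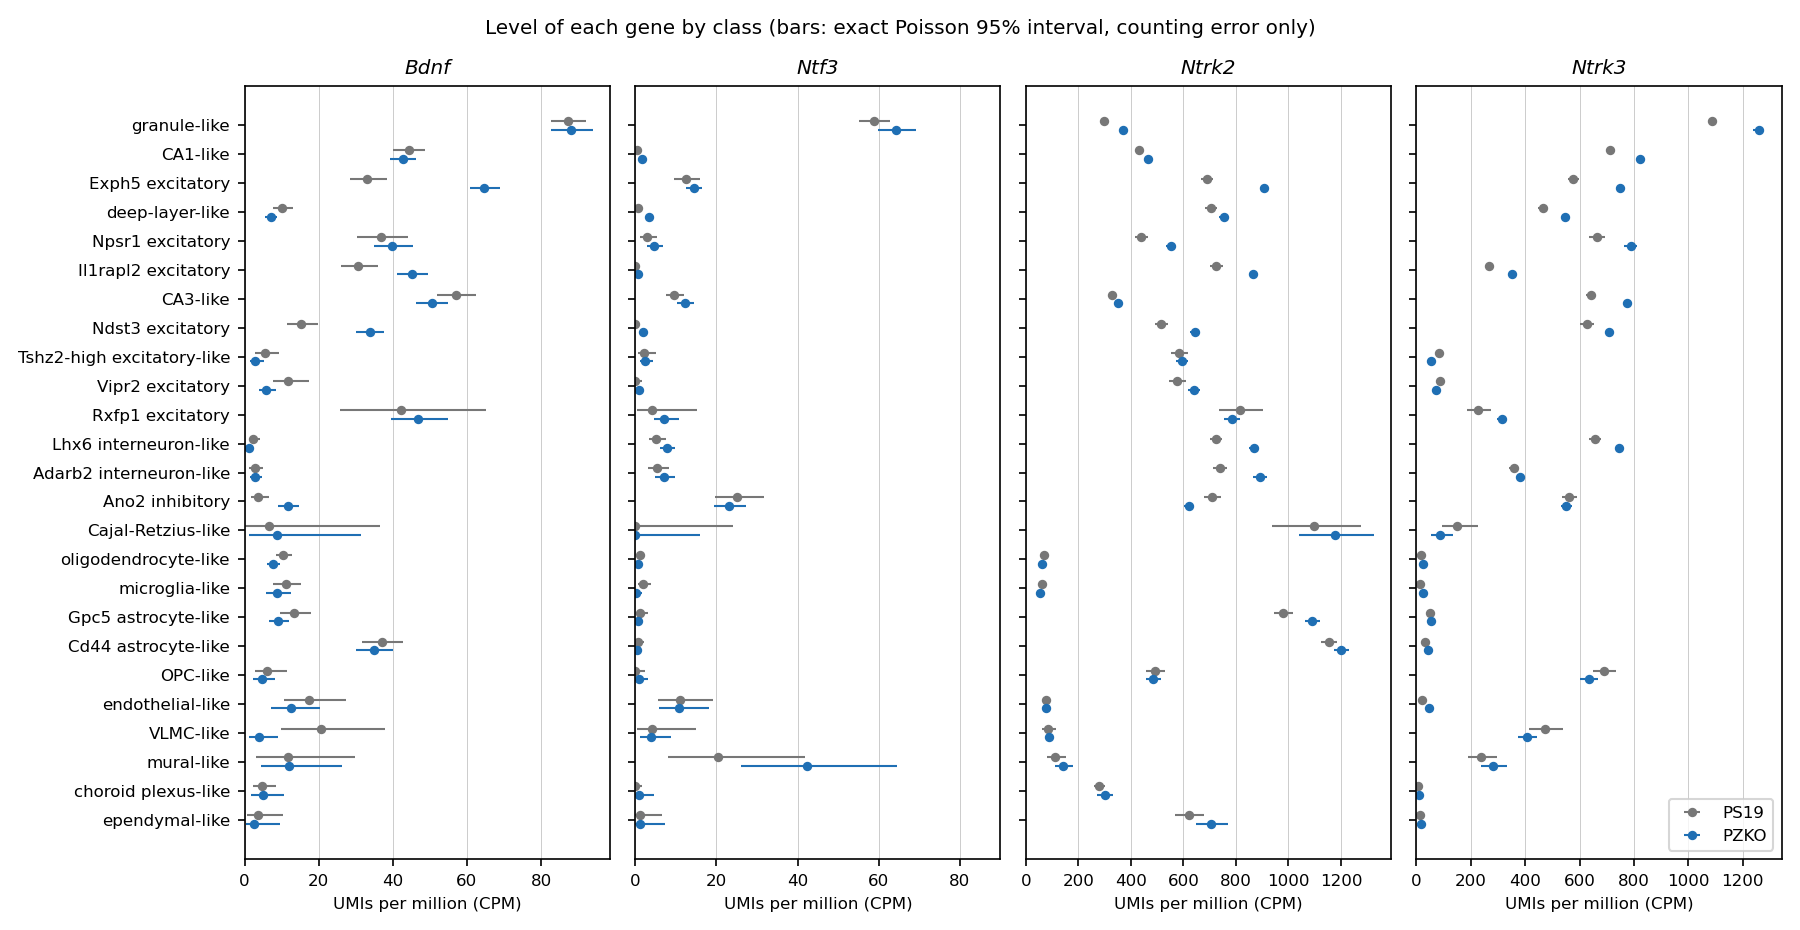
Level of Bdnf, Ntf3, Ntrk2 and Ntrk3 (CPM, linear axis from 0, with its own range in each panel) in the 25 classes, PS19 in grey and PZKO in blue, 1 pooled library each, with exact Poisson 95% intervals as bars. Bdnf, Ntf3 and Ntrk3 were highest in granule-like nuclei, where Ntrk2 was among the lowest levels of the neuronal classes.

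The largest PZKO to PS19 ratios of Bdnf among excitatory classes were outside the dentate gyrus and the CA1-like and CA3-like classes. Of the marker lists, the Exph5 class scored highest on upper-layer excitatory neurons and the Ndst3 class on subiculum neurons. The region these nuclei came from was not tested. Exph5 excitatory nuclei were 2.42% of PS19 and 5.44% of PZKO nuclei. In Exph5 excitatory nuclei, Bdnf was 33.2 CPM in PS19 (171 UMIs in 232 nuclei) and 64.7 CPM in PZKO (1001 UMIs in 506 nuclei), a log2 ratio of 0.96 (0.73 to 1.21). In Ndst3 excitatory nuclei, it was 15.2 CPM in PS19 and 33.7 CPM in PZKO, a ratio of 1.16 (0.73 to 1.60). In Il1rapl2 excitatory nuclei, the levels were 30.7 and 45.1 CPM, a ratio of 0.56 (0.29 to 0.83). A log2 ratio of at least 0.5 was used as the mark of size, and among all genes with at least 100 UMIs it was reached upward by 3.62% in Exph5 excitatory, 3.22% in Ndst3 excitatory and 4.09% in Il1rapl2 excitatory nuclei. Over the whole Exph5 class, Bdnf was the only one of the 4 members measured at that depth to pass it. In Vipr2 excitatory nuclei the ratio was −1.01 (−1.84 to −0.17), from 26 and 27 UMIs, in a class where 5.72% of genes passed 0.5 downward. Without the nucleus richest in Bdnf in each library, the Vipr2 excitatory ratio was −0.42. In Ano2 inhibitory nuclei it was 1.69 (0.72 to 2.81), from 10 and 68 UMIs, where 8.75% of genes passed 0.5 upward.

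The Bdnf difference in Exph5 excitatory nuclei was located in part of the class. At a finer clustering, the larger sub-cluster (159 PS19 and 336 PZKO nuclei) had 37.1 CPM in PS19 and 82.8 CPM in PZKO, whereas the smaller (71 and 170 nuclei) had 24.6 and 27.9 CPM. The division was not particular to Bdnf. Ntf3, Ntrk2 and Ntrk3 had log2 ratios of 0.82, 0.58 and 0.51 in the larger sub-cluster, and −0.18, −0.15 and 0.07 in the smaller. The 17 activity-regulated genes on the list used here, most of them transcription factors that neurons induce within minutes to hours of firing, followed the same division. In the larger sub-cluster, 12 of 15 measured genes of this list passed a log2 ratio of 0.5 upward, against 5.36% of all genes, and in the smaller 1 of 9, against 6.02%, with 1 other past it downward. Several of these genes (Fos, Arc, Npas4, Egr1, Nr4a1, Homer1) are genes the study itself picked out in these libraries, so the list is not independent of them.

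**Figure D2:**
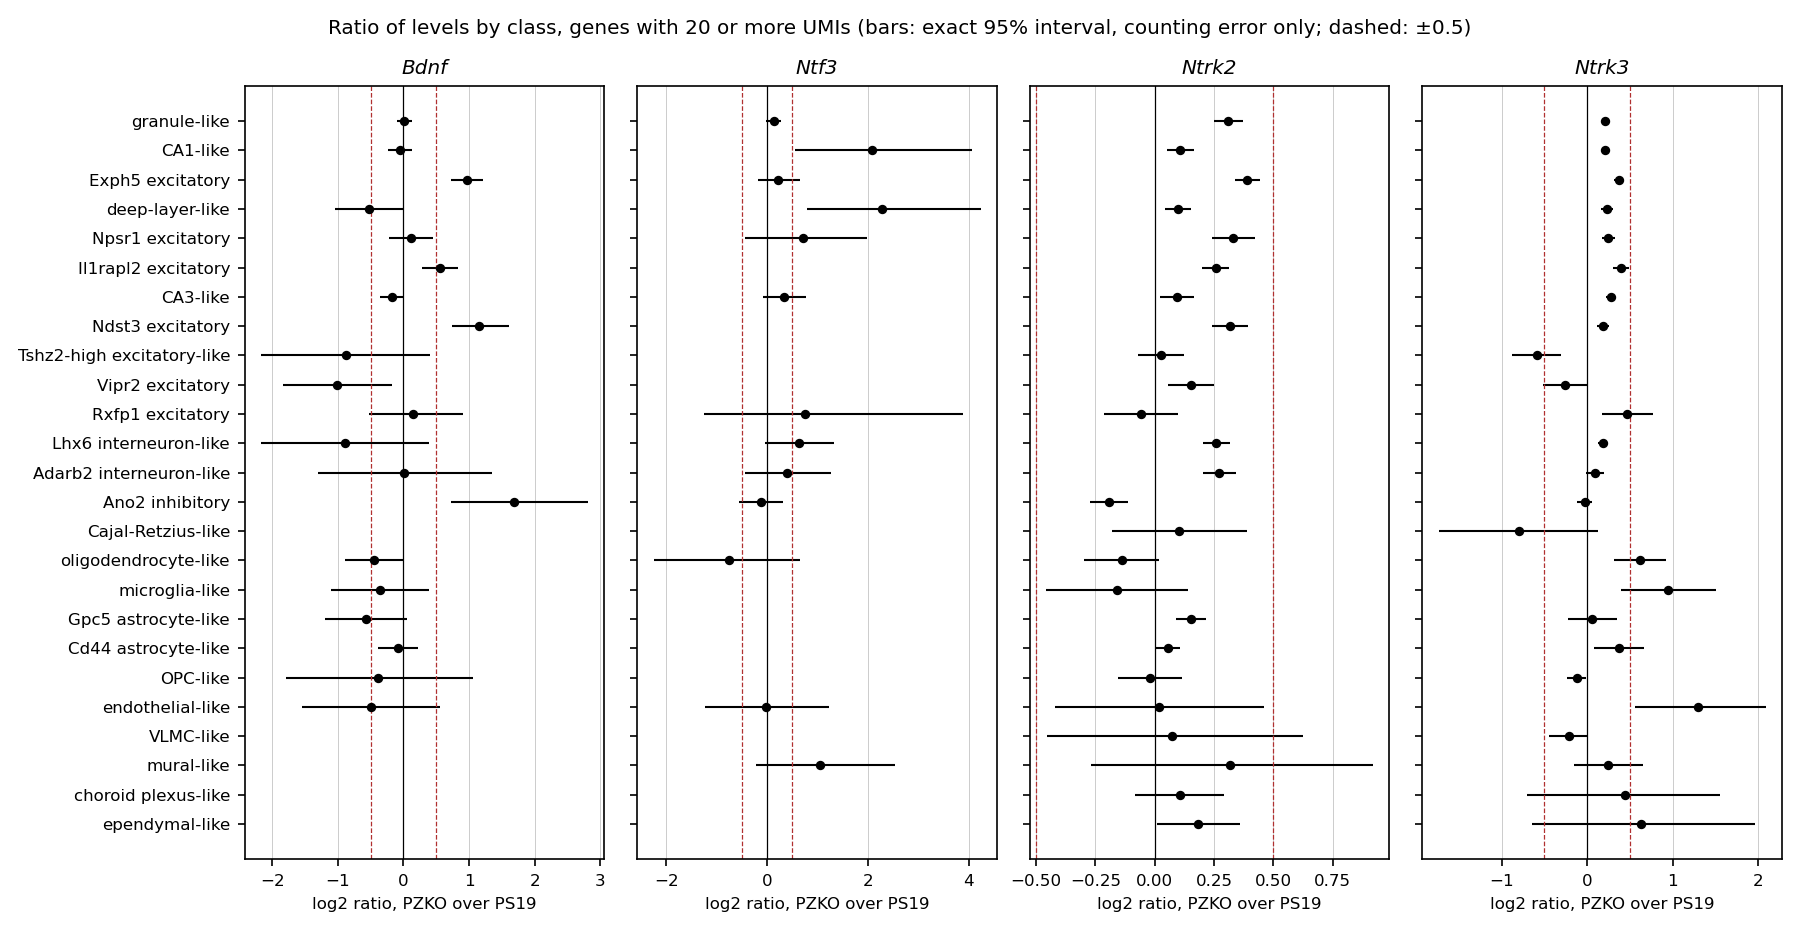
log2 ratio of PZKO over PS19 for Bdnf, Ntf3, Ntrk2 and Ntrk3 in each class with at least 20 UMIs of the gene, with exact 95% intervals for counting error and dashed lines at a log2 ratio of 0.5 in each direction. Ratios of Ntrk2 lay between −0.19 and 0.39, while those of Bdnf reached 0.96 in Exph5 excitatory and 1.16 in Ndst3 excitatory nuclei.

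Bdnf UMIs were unevenly spread over nuclei of the same class. A Bdnf UMI was found in 56.1% of the granule-like nuclei of PS19 and 58.9% of those of PZKO, where an even rate at the measured depths would give 70.4% and 80.6%. Microglia-like nuclei, with a median depth of 3313 and 4188 UMIs against 14681 and 20602.5, had a Bdnf UMI in 3.27% and 3.19%. Nuclei under 2000 UMIs were then left out and every other nucleus thinned to 2000 UMIs. The shares were 17.7% and 11.3% in granule-like nuclei and 1.70% and 1.44% in microglia-like nuclei. At this equal depth the granule-like share was lower in PZKO, although the granule-like CPM was close in both libraries. The CPM sums UMIs over the class, so nuclei rich in Bdnf weigh more in it than in the share. The cause of the lower share was not tested, and the difference has no replicate check. No order is read from the microglia-like shares, which rest on few Bdnf UMIs. A PZKO granule-like nucleus held 97 Bdnf UMIs, and without the richest nucleus of each library the granule-like levels were 86.1 and 79.8 CPM. The Exph5 excitatory levels were 31.0 and 60.7 CPM without the richest nuclei. Because UMIs gather in few nuclei, the intervals given for Bdnf are narrower than the spread between nuclei.

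Nuclei rich in Bdnf also carried more RNA of activity-regulated genes. Within each class and library, nuclei with 3 or more Bdnf UMIs were set beside nuclei with none, as a description with no test. In CA1-like nuclei the summed level of the 17 genes was 384 CPM without Bdnf and 1194 CPM in Bdnf-rich nuclei of PS19, and 371 and 987 CPM in PZKO. In Exph5 excitatory nuclei it was 472 and 1327 CPM in PS19 and 566 and 1781 CPM in PZKO. In the 7 excitatory classes examined, the log2 ratio lay between 0.89 and 1.94 wherever a library had at least 10 nuclei of both kinds. Ndst3 excitatory and Npsr1 excitatory nuclei of PS19 had too few. The same ratio over all genes is not given here. A class can also mix sub-clusters: in PZKO, the larger Exph5 sub-cluster had 82.8 CPM of Bdnf and 1070.5 CPM of Ntrk2, and the smaller 27.9 and 570 CPM. The part of sub-clusters in the comparison of Bdnf-rich with Bdnf-free nuclei was not tested.

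Npas4 and Nptx2 are named here after their values were seen. Npas4, an activity-induced transcription factor that controls Bdnf, stood at 9.31 CPM in Exph5 excitatory nuclei of PS19 without Bdnf and at 42.3 CPM in the Bdnf-rich ones, and at 10.9 and 46.1 CPM in PZKO. Nptx2, a secreted pentraxin that gathers glutamate receptors at synapses, stood at 1.80 and 38.5 CPM in PS19 and at 1.77 and 38.8 CPM in PZKO. The Exph5 class held 19 Bdnf-rich nuclei of 232 in PS19 and 100 of 506 in PZKO. Depth moved with this split, with a median of 34522 UMIs in the Bdnf-rich and 26679 in the Bdnf-free PZKO nuclei of this class. Among nuclei of this class over 20000 UMIs, the log2 ratio for the summed list was 1.49 in PS19 and 1.62 in PZKO.

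The receptors differed in this comparison. Ntrk2 was higher in Bdnf-rich CA1-like nuclei, at 689 CPM against 363 CPM in PS19 and 726 CPM against 365 CPM in PZKO, log2 ratios of 0.93 (0.81 to 1.04) and 0.99 (0.91 to 1.07). Ntrk3 had smaller ratios in the same nuclei, 0.18 (0.08 to 0.28) and 0.13 (0.07 to 0.20). These CA1-like ratios took nuclei of every depth, and those among CA1-like nuclei over 20000 UMIs are not given here. In granule-like nuclei the Ntrk2 ratio was 0.25 in PS19 and 0.44 in PZKO, while Ntrk3 was lower in the Bdnf-rich nuclei, with ratios of −0.23 (−0.29 to −0.17) and −0.28 (−0.35 to −0.22). Among granule-like nuclei over 20000 UMIs, the Ntrk2 ratio was −0.02 in PS19 and 0.33 in PZKO. Ntf3 did not follow Bdnf between granule-like nuclei, at 59.1 CPM without and 52.3 CPM with Bdnf in PS19, and 64.8 and 56.6 CPM in PZKO.

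**Figure D3:**
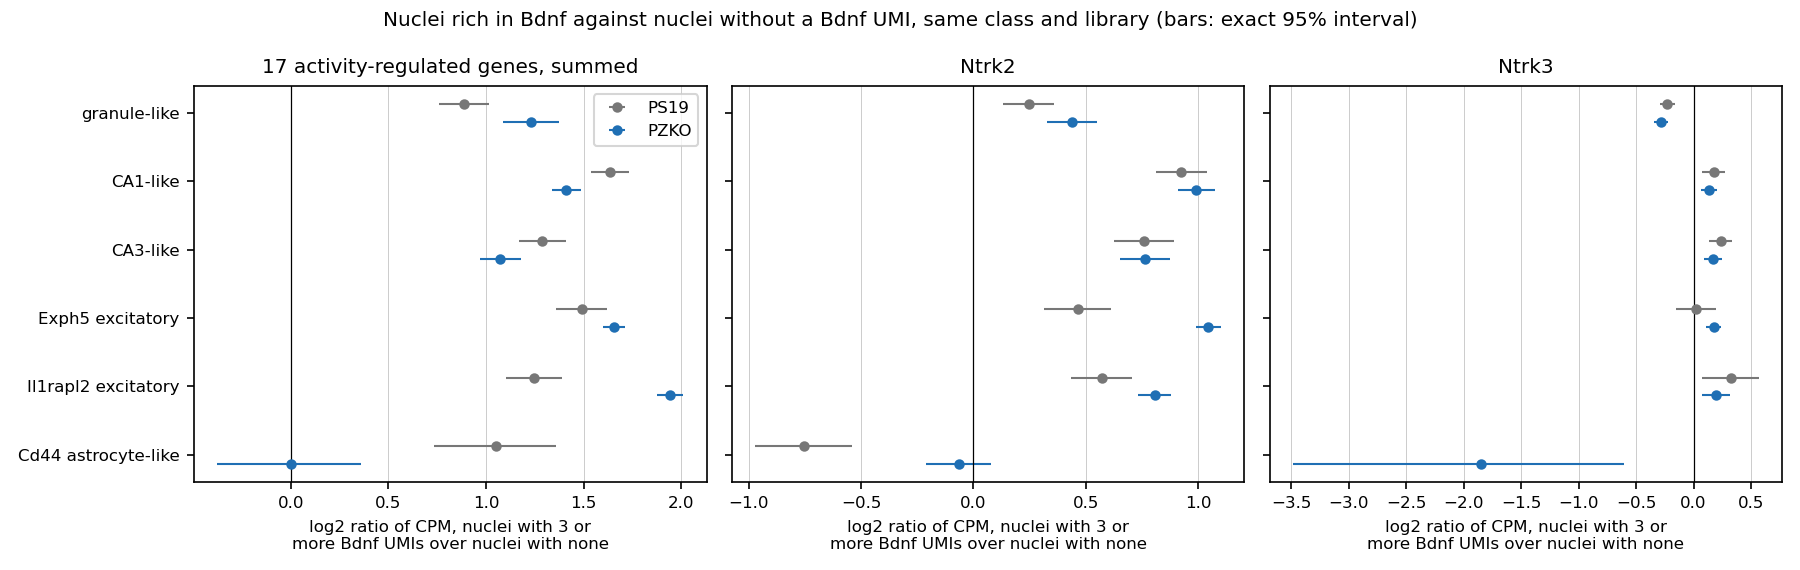
log2 ratio of CPM in nuclei with 3 or more Bdnf UMIs over nuclei with none, of the same class and library, for the summed activity-regulated genes, Ntrk2 and Ntrk3, with exact 95% intervals for counting error (PS19 grey, PZKO blue). The summed list and Ntrk2 lay above 0 in the 5 excitatory classes drawn, and the Ntrk3 ratios of these classes lay between −0.28 and 0.33.

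Bdnf also separated the astrocyte classes. Cd44 astrocyte-like nuclei, which carry more of the hyaluronan receptor gene Cd44, had 37.0 CPM in PS19 and 34.9 CPM in PZKO, and Gpc5 astrocyte-like nuclei 13.3 and 9.01 CPM. The log2 ratio of the Cd44 class over the Gpc5 class was 1.47 (0.98 to 1.99) in PS19 and 1.95 (1.50 to 2.43) in PZKO. The level of Slc17a7 was set beside Bdnf as a measure of RNA from excitatory neurons. Slc17a7, their vesicular glutamate transporter, had 101 and 96 UMIs in the Cd44 class, so there were 1.81 and 2.01 Bdnf UMIs per Slc17a7 UMI, against 0.366 and 0.403 in granule-like nuclei, 0.252 and 0.204 in microglia-like nuclei and 0.538 and 0.355 in the Gpc5 class. The PZKO to PS19 ratio was −0.08 (−0.38 to 0.22) in the Cd44 class and −0.57 (−1.19 to 0.06) in the Gpc5 class. In the Cd44 class, 20 PS19 nuclei and 22 PZKO nuclei held 3 or more Bdnf UMIs, and the summed activity-regulated genes in them had a log2 ratio over Bdnf-free nuclei of 1.05 in PS19 and 0.00 in PZKO.

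Ntf3 was concentrated in granule-like nuclei, which held 73.0% of its UMIs in PS19 and 47.3% in PZKO. Its level there was 58.8 CPM (55.0 to 62.8) in PS19 and 64.3 CPM (59.7 to 69.2) in PZKO, a log2 ratio of 0.13 (−0.01 to 0.27). Ano2 inhibitory nuclei had 25.2 and 23.0 CPM, Exph5 excitatory nuclei 12.4 and 14.5 CPM, endothelial-like nuclei 11.0 and 10.9 CPM and CA3-like nuclei 9.65 and 12.2 CPM. CA1-like nuclei had 0.423 CPM in PS19 and 1.78 CPM in PZKO, from 4 and 25 UMIs. Mural-like nuclei of the vessel wall had 20.3 CPM in PS19 and 42.3 CPM in PZKO, from 7 and 21 UMIs, the next level after granule-like nuclei in PZKO, with overlapping intervals, and a ratio of 1.06 (−0.23 to 2.54) whose interval held 0, in a class where 10.5% of genes passed 0.5 upward. The sub-cluster with 101 and 110 of the mural-like nuclei had 2 and 0 of these UMIs, and with sub-clusters weighted to the PS19 mix the ratio was −0.17.

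Over all nuclei, Ntf3 was lower in PZKO, at 9.98 CPM against 12.3 CPM, a log2 ratio of −0.30 (−0.41 to −0.19). Over excitatory neurons it was 17.7 CPM in PS19 and 12.4 CPM in PZKO, a ratio of −0.51 (−0.63 to −0.39), where 7.64% of all genes passed 0.5 downward. With edgeR or DESeq2 scaling, this ratio moved inside 0.5. Within the 7 excitatory classes that had at least 20 Ntf3 UMIs the ratio was above 0, with an interval above 0 in 2. The share of all genes with such ratios is not given here, so this count is not read as particular to Ntf3. With each library clustered on its own, the Ntf3 ratio was −2.41 in CA1-like and −0.94 in Npsr1 excitatory nuclei. With the PZKO clusters weighted to their PS19 share of UMIs, the ratio was 0.21 (0.08 to 0.33) over excitatory neurons and 0.19 (0.08 to 0.30) over all nuclei. This weighting changed the shares of all clusters at once. Granule-like nuclei were 10.5% of PS19 and 5.52% of PZKO nuclei, with a higher median depth in PZKO, and the part of their share in the pooled ratio was not tested alone. In the classes with the highest Ntf3 ratios its UMIs were few, with 4 and 33 in deep-layer-like nuclei (2.27, 0.78 to 4.23) and 4 and 25 in CA1-like nuclei (2.08, 0.54 to 4.06). A ratio of 0.5 was passed upward by 1.87% and 2.34% of genes in these classes. The 25 PZKO UMIs of CA1-like nuclei lay in 9 of 398 nuclei, so the interval there is narrower than the spread between nuclei.

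**Figure D4:**
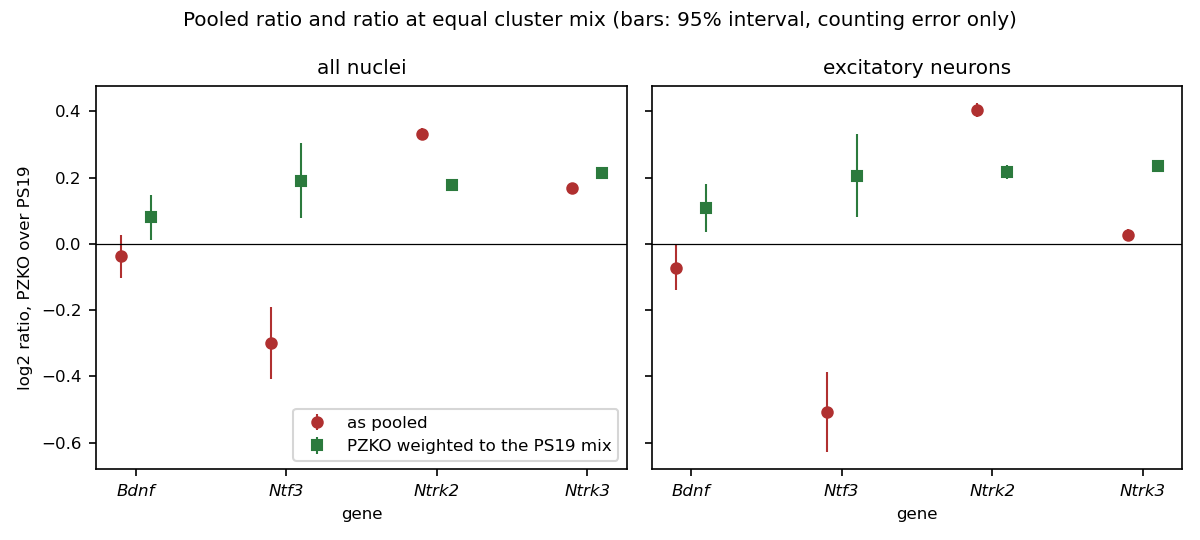
log2 ratio of PZKO over PS19 for 4 genes over all nuclei and over excitatory neurons, as pooled (circles) and with PZKO clusters weighted to the PS19 share of UMIs (squares), with 95% intervals for counting error. Ntf3 changed from −0.30 to 0.19 over all nuclei and from −0.51 to 0.21 over excitatory neurons.

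Ntrk2 was highest in astrocytes and Cajal-Retzius-like cells, the reelin-secreting neurons of the outer layers. Cd44 astrocyte-like nuclei had 1155 CPM in PS19 and 1200 CPM in PZKO, Cajal-Retzius-like nuclei 1096 and 1177 CPM, and Gpc5 astrocyte-like nuclei 981 and 1091 CPM. Cd44 astrocyte-like and Cajal-Retzius-like levels had overlapping intervals. Ependymal-like nuclei, which line the ventricle, had 622 and 706 CPM, and OPC-like nuclei, the precursors of oligodendrocytes, 493 and 486 CPM. Oligodendrocyte-like nuclei were far lower, at 68.9 and 62.5 CPM, close to microglia-like nuclei at 60.7 and 54.3 CPM.

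Among neurons, Ntrk2 was lowest in granule-like, CA3-like and CA1-like nuclei. Granule-like nuclei had 297 CPM in PS19 and 369 CPM in PZKO, CA3-like nuclei 328 and 349 CPM and CA1-like nuclei 431 and 464 CPM. Lhx6 interneuron-like nuclei had 724 and 868 CPM and Adarb2 interneuron-like nuclei 739 and 891 CPM, where Bdnf itself was near its lowest level. Across the 25 classes, which share library and depth differences, the Pearson correlation of log2(CPM + 1) between Bdnf and Ntrk2 was −0.09 in PS19 and 0.12 in PZKO.

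Ntrk2 was higher in PZKO over all nuclei, at 619 CPM against 492 CPM, a log2 ratio of 0.33 (0.32 to 0.35), and of 0.18 (0.16 to 0.19) with the PS19 cluster mix. The interval lay above 0 in 14 of 25 classes and below 0 in 1, Ano2 inhibitory (−0.19). The share of all genes with such intervals is not given here, so these counts are not read as particular to Ntrk2. None of the 25 classes passed a ratio of 0.5 in either direction, which 6.99% to 22.2% of genes did in these classes. Over all nuclei, none of the 5 members passed it, against 2.31% of genes upward and 12.3% downward. Exph5 excitatory nuclei had the highest ratio, from 691 to 906 CPM (0.39, 0.34 to 0.44). Depth moved with Ntrk2 within a class. In granule-like nuclei with 5000 to 20000 UMIs the levels were 280 CPM in PS19 and 303 CPM in PZKO, and over 20000 UMIs they were 348 and 398 CPM. In Exph5 excitatory nuclei over 20000 UMIs the levels were 718 and 910 CPM. The makeup of the RNA also differed between libraries. The median log2 ratio over all nuclei was −0.79 for 13 mitochondrially encoded genes and −0.57 for 78 ribosomal protein genes, 0.15 for 8 long noncoding RNAs that stay in the nucleus and −0.12 for all genes. The part of RNA quality in the ratios of the receptors was not tested.

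Ntrk3 was highest in granule-like nuclei, at 1088 CPM in PS19 and 1258 CPM in PZKO, a log2 ratio of 0.21 (0.18 to 0.24). CA1-like nuclei had 713 and 821 CPM, CA3-like nuclei 641 and 776 CPM, and Lhx6 interneuron-like nuclei 657 and 746 CPM. Outside neurons, Ntrk3 was highest in OPC-like nuclei (690 and 634 CPM), VLMC-like nuclei of the meninges (472 and 407 CPM) and mural-like nuclei (238 and 282 CPM). Free RNA at the estimated ambient share would give 150 and 255 CPM in VLMC-like and 159 and 214 CPM in mural-like nuclei. These estimates are coarse: in endothelial-like nuclei the share would give 201 and 280 CPM, against 19.3 and 47.5 CPM measured. The mural-like level was carried by few nuclei: a sub-cluster with 101 of 112 PS19 and 110 of 137 PZKO nuclei had 33 and 10 of the 82 and 140 UMIs, at 112 and 30.7 CPM, a log2 ratio of −1.87. Ntrk3 was lowest in ependymal-like nuclei (11.8 and 18.3 CPM) and choroid plexus-like nuclei (7.80 and 10.6 CPM), and astrocyte-like nuclei had 40.6 and 48.7 CPM. Tshz2-high excitatory-like nuclei (83.9 and 55.8 CPM) and Vipr2 excitatory nuclei (87.6 and 73.4 CPM) stood below the other excitatory classes.

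The PZKO to PS19 ratio of Ntrk3 was 0.17 (0.15 to 0.18) over all nuclei and 0.21 (0.20 to 0.23) with the PS19 cluster mix. Its interval lay above 0 in 14 of 25 classes, of which 9 were excitatory. The share of all genes with such an interval is not given here, so this count is not read as particular to Ntrk3. Tshz2-high excitatory-like nuclei went the other way, with 187 UMIs in PS19 and 229 in PZKO and a ratio of −0.59 (−0.87 to −0.30), in a class where 6.52% of genes passed 0.5 downward. OPC-like nuclei had a ratio of −0.12 (−0.24 to −0.01). The highest ratios were in classes with little Ntrk3, endothelial-like nuclei (19.3 and 47.5 CPM) and microglia-like nuclei (13.2 and 25.4 CPM), where 4.41% and 3.28% of genes passed 0.5 upward. At these levels free RNA cannot be told apart from RNA of the cells.

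The balance of TrkC and TrkB transcripts differed widely between classes. As UMIs, which depend on gene length and are compared here only between classes, there were 5.59 Ntrk3 per Ntrk2 UMI in VLMC-like nuclei of PS19 and 4.58 in PZKO, and 3.66 and 3.41 in granule-like nuclei. The ratio was 1.95 and 2.22 in CA3-like, 1.65 and 1.77 in CA1-like, 1.51 and 1.42 in Npsr1 excitatory and 1.40 and 1.30 in OPC-like nuclei. It was 0.485 and 0.429 in Adarb2 interneuron-like nuclei, 0.144 and 0.0938 in Tshz2-high excitatory-like nuclei and 0.0374 and 0.0425 in astrocyte-like nuclei. UMIs of both receptors were found in 98.2% of PS19 and 99.5% of PZKO CA1-like nuclei and in 92.5% and 96.7% of granule-like nuclei, against 0.845% and 2.12% of microglia-like nuclei at a lower depth. The neuronal classes with the lowest shares were Vipr2 excitatory (45.6% and 43.4%), Cajal-Retzius-like (35.7% and 23.3%) and Tshz2-high excitatory-like nuclei (23.1% and 23.5%). Cajal-Retzius-like nuclei had a low median depth, 5329.5 and 7211 UMIs. The next lowest neuronal class, Adarb2 interneuron-like nuclei, had 82.4% and 90.2%.

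Ngfr was scarce, with 58 UMIs in PS19 (0.577 CPM) and 80 in PZKO (0.525 CPM). Oligodendrocyte-like nuclei held 27 and 40 of these UMIs, at 2.91 CPM (1.91 to 4.23) and 3.82 CPM (2.73 to 5.21), a log2 ratio of 0.40 (−0.34 to 1.16). The clusters of this class had different shares in each library: the largest PS19 cluster held 1343 PS19 and 655 PZKO nuclei, and the largest PZKO cluster 319 and 811. Tshz2-high excitatory-like nuclei held 12 and 13 Ngfr UMIs, at 5.39 and 3.17 CPM. Granule-like nuclei had none in either library, which allows up to 0.196 CPM in PS19 and 0.268 CPM in PZKO (3 UMIs).

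Other genes of the pathway are given in their highest PS19 class. Ntf5, which encodes neurotrophin 4, had 14 UMIs in PS19 and 3 in PZKO in choroid plexus-like nuclei. Of the sortilin family, receptors that sort neurotrophins and partner p75NTR, Sort1 had its peak in oligodendrocyte-like nuclei, at 291 and 334 CPM (0.20, 0.13 to 0.27). Sorcs3 peaked in Adarb2 interneuron-like nuclei at 722 and 858 CPM, and Sorcs2 in Vipr2 excitatory nuclei at 237 and 262 CPM. Sorcs1 had 871 and 850 CPM in OPC-like nuclei, its highest class in PS19, while its highest class in PZKO was oligodendrocyte-like.

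Of the partners of p75NTR and related receptors, Lingo1, a co-receptor in myelin inhibition, was highest in Npsr1 excitatory nuclei at 188 and 225 CPM. Tnfrsf19, a related receptor, was highest in endothelial-like nuclei at 231 and 230 CPM. Rtn4r, the Nogo receptor, had 15 and 7 UMIs in its highest PS19 class, Cajal-Retzius-like nuclei, where Bex3 had 12 and 7 and Maged1 10 and 12 UMIs. Nradd had 6 and 1 UMIs in VLMC-like nuclei. Over excitatory neurons, the log2 ratio of PZKO over PS19 was 0.36 for Lingo1, −0.07 for Rtn4r, −0.23 for Bex3 and −0.33 for Maged1. It was 0.34 for Sorcs3, 0.32 for Sorcs1, 0.18 for Sorcs2 and 0.04 for Sort1. These ratios pool classes whose shares differed, and were not weighted to the PS19 cluster mix.

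The wider pathway was counted in the same way over excitatory neurons. Its ratios pool classes whose shares differed, and were not weighted to the PS19 cluster mix. Of 49 genes in 6 pathway groups, 45 had at least 100 UMIs, 1 of which was higher and 1 lower by a log2 ratio of 0.5, where 3.45% of all genes were higher and 7.64% lower. With so few genes past the mark, these counts are not read as particular to the pathway. The median of the 45 was 0.03, against −0.07 for all genes. The higher gene was Pcsk1, a convertase that cleaves prohormones and precursors, with 1955 UMIs in PS19 and 7039 in PZKO (1.16, 1.08 to 1.23). The other proteases named by rule were Pcsk6 (0.22), Plat, the tissue plasminogen activator (−0.06), and Furin (−0.30). The lower gene was Mapk3, which encodes the kinase ERK1, with a ratio of −0.52 (−0.66 to −0.37), which edgeR or DESeq2 scaling moved inside 0.5. Beside it stood Hras (−0.44), Map2k2 (0.12) and Pik3ca (0.19). Among Trk adaptors, Frs3 (−0.43) and Frs2 (−0.13) had the lowest and Shc3 (0.38) and Gab1 (0.21) the highest ratios.

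The activity-regulated genes had higher ratios. In excitatory neurons all 17 genes were measured, 10 of which were higher in PZKO by a log2 ratio of 0.5, against 3.45% of all genes, and none lower, against 7.64%, with a median of 0.55. The study reported Fos, Arc, Npas4, Egr1, Nr4a1 and Homer1 as increased in these same PZKO neurons. The count therefore repeats a choice made from these libraries and is no independent support. It is pooled over classes whose shares differed, and the list was not weighted to the PS19 cluster mix. Egr2 (1.42, 0.81 to 2.08) and Fosb (1.20, 0.87 to 1.54) had the highest ratios and Inhba (−0.33, −0.43 to −0.23) and Vgf (0.11, −0.00 to 0.21) the lowest. Bdnf over the same neurons had a ratio of −0.07 (−0.14 to −0.00), and 0.11 (0.04 to 0.18) with the PS19 cluster mix. By class, the median of the list was 0.70 in Exph5 excitatory and 0.99 in Il1rapl2 excitatory nuclei, where Bdnf was higher, and 0.15 in granule-like, −0.14 in CA1-like and −0.30 in CA3-like nuclei, where the Bdnf interval held 0. In Ndst3 excitatory nuclei the median was 0.11, although the Bdnf ratio there was 1.16.

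The genes most alike to each member over the 25 classes were taken by the lower of the Pearson correlations of log2(CPM + 1) in PS19 and PZKO, as a description over classes that share libraries. For Bdnf these were Neurod1 (0.79 and 0.83), Zbtb18 (0.72 and 0.74) and Robo3 (0.71 and 0.83), and for Ntf3 Rerg (0.70 and 0.76), Stc1 (0.68 and 0.77) and Slc26a10 (0.69 and 0.68). For Ntrk2, Gm47423 (0.94 and 0.93) and 4930415C11Rik (0.92 and 0.93) led, both annotated on the opposite strand within the span of Ntrk2, followed by Fmn2 (0.90 and 0.92). For Ntrk3 they were Shc2, a Trk adaptor (0.89 and 0.86), Gm45159 (0.87 and 0.85) and Neto1 (0.85 and 0.86). For Ngfr, with few UMIs, they were Cyp2j12 (0.64 and 0.80), Gm28112 (0.62 and 0.69) and Nipal4 (0.59 and 0.75). Bdnf and Ntf3 correlated at 0.22 and 0.30, and Ntf3 and Ntrk3 at 0.32 and 0.56.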

How the data were processed

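Nuclei of pooled hippocampi were profiled with 10x Genomics 3′ chemistry, in 1 library per genotype. The deposited values were raw UMI counts per gene and nucleus, made by the authors with Cell Ranger on mm10. The submitters' processing notes name Cell Ranger 7.0.1 and the matrix headers 8.0.1, and the use of introns and strand is not given in the sources used here. The extract protocol speaks of animals processed separately, while titles and methods describe pools, and each matrix was used as 1 sample.

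Nuclei with at least 600 UMIs, 300 genes and at most 5% mitochondrial UMIs were kept. Scrublet scores in Scanpy 1.11.5 removed the highest-scored nuclei at 0.8% per 1000 nuclei (876 and 821), since its own threshold called 589 in PS19 and 0 in PZKO. Both libraries were clustered together on 2000 variable genes, without the members and listed genes, with 30 components, 20 neighbours and Leiden resolution 1 (leidenalg 0.10.2). Clusters were named from marker lists. The limits for leaving clusters unnamed, which hold 4.52% and 3.75% of nuclei, were set after the clusters were seen. The members and all gene lists were chosen with earlier results of these data known. The named genes were the members in every class and the 3 genes most alike to each member. By the same rule, ligands, sortilins, p75NTR partners and related receptors were named in their highest PS19 class. Other lists gave the 2 lowest and 2 highest ratios over excitatory neurons. Npas4 and Nptx2 were named outside this rule. Some ligand and receptor genes under this rule are not reported here.

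Counts were summed per class and divided by the class total. Levels have exact Poisson, ratios exact Clopper-Pearson and shares exact binomial 95% intervals (SciPy 1.17.1), except weighted ratios, whose intervals are by the delta method. No p-value was computed, because nuclei are not replicates. Steps were tested on simulated data. Alternatives used edgeR 4.0.16 factors and DESeq2 1.42.0 size factors only as scalings. Comparisons of Bdnf-rich with Bdnf-free nuclei, of sub-clusters (resolution 2), depth strata and the cluster weighting without unnamed clusters were chosen after seeing the data.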

Additional observations from a re-analysis of the deposited data

How the results depend on the processing

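No paired analysis was possible because each genotype has 1 library. The class with the highest level stayed the same under every alternative tried for Bdnf, Ntf3, Ntrk3 and Ngfr, and for Ntrk2 in 8 of 12. Direct scaling by total UMIs leaves the median of all genes at −0.12 over all nuclei. The edgeR factors add 0.12 to every ratio there and 0.08 over excitatory neurons, and the DESeq2 factors 0.14 and 0.09. Over all nuclei, the log2 ratios of Bdnf, Ntf3, Ntrk2 and Ntrk3 were 0.083, −0.18, 0.45 and 0.29 with edgeR factors and 0.10, −0.16, 0.47 and 0.31 with DESeq2 factors, so Bdnf changed sign at a size near 0. Over excitatory neurons, those of Bdnf, Ntrk2 and Ntrk3 were 0.0063, 0.48 and 0.11 with edgeR and 0.020, 0.50 and 0.12 with DESeq2 factors. The Ntf3 ratio over excitatory neurons moved inside 0.5 with either. With the PS19 cluster mix, Bdnf, Ntf3, Ntrk2 and Ntrk3 stood at 0.080, 0.19, 0.18 and 0.21 over all nuclei and at 0.11, 0.21, 0.22 and 0.23 over excitatory neurons. As a mean over nuclei, Bdnf, Ntrk2 and Ntrk3 were −0.14, 0.29 and 0.25 over all nuclei and −0.25, 0.45 and 0.00049 over excitatory neurons. The stricter filter gave 0.35 for Ntrk2 and 0.13 for Ntrk3 over all nuclei, and ambient subtraction 0.13 for Ntrk3.

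Within classes, some ratios from few UMIs changed direction: Ntf3 in oligodendrocyte-like nuclei (0.34) and Ntrk3 in ependymal-like nuclei (−0.64) under the stricter filter, Ntf3 in CA1-like (−2.41) and Npsr1 excitatory nuclei (−0.94) with each library clustered on its own, and Ntf3 in mural-like nuclei (−0.17) with sub-cluster weighting. The same weighting moved Bdnf in granule-like nuclei from 0.01 to 1.21, because a sub-cluster of 107 PS19 nuclei had 4 PZKO nuclei with 98 Bdnf UMIs. Bdnf in Exph5 excitatory nuclei lay between 0.71 without doublet removal and 1.04 with ambient subtraction, and in Ndst3 excitatory nuclei between 1.03 and 1.32. Pathway genes lower in PZKO excitatory neurons numbered 1, and 2 with a minimum of 20 UMIs or none, 0 at a log2 ratio of 1 and 0 with edgeR or DESeq2 factors.

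The ambient subtraction is coarse: its share for oligodendrocyte-like nuclei would give 114 CPM of Ntrk3 in PS19, above the 15.5 CPM measured. Ngfr and Ntf5 were limited by depth, and differences in them were not detectable beyond their intervals.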
